A study of Mus musculus with 4 samples.

Results

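Cytokine receptors of 2 families were examined in resting helper T cells through the accessible chromatin around their genes. The genes were 9 of the 21887 protein-coding genes on the assembled mouse chromosomes: Il2ra, Il2rb, Il4ra, Il7r, Il9r, Il15ra and Il21r, whose products pair with the common gamma chain or with its partners, and Il6ra and Il6st, of which the second encodes gp130. They were chosen by name, and a region was counted for a gene when it overlapped the gene body or the 30 kb on either side by at least 1 bp. By this rule 65 of the 64525 accessible regions of the series belonged to at least 1 of the 9 genes.

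The study applied ATAC-seq, in which a transposase inserts sequencing adapters into DNA not covered by nucleosomes, to naive CD4+ T cells from spleen and pLN of mice. Of the 4 libraries, 2 came from mice labelled wild type (WT) and 2 from mice labelled DDX55 KO; the labels give no strain, age or sex, no promoter or Cre that would restrict the knockout, and do not say whether replicates were separate animals. The data used here are 1 joint list of regions on build mm10, with a chromosome, a start and an end for each region and no value per library. All results therefore pool both genotypes: the difference between DDX55 KO and WT was not analysed here, the loss of Ddx55 was not checked in these files, a region may come from any of the 4 libraries, and depth and the spread between libraries are unknown.

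Common gamma chain receptors read interleukins that govern lymphocyte survival and differentiation. A private chain binds the cytokine, the shared gamma chain completes the receptor, and JAK kinases bound to the chains phosphorylate STAT transcription factors. Receptors of the gp130 family work by the same kinase and STAT route, with gp130 as the shared signalling chain. Naive T cells depend on interleukin-7 for survival, whereas the high-affinity interleukin-2 receptor chain CD25, the product of Il2ra, is best known on regulatory and activated T cells.

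The list held regions at the genes that define the labelled cell type. All 10 naive CD4 T cell markers, among them Cd3d, Cd3e, Cd4, Lck, Tcf7 and Ccr7, had a region within 1 kb of the start, and 0 of 6 B cell markers did. The counts were 2 of 4 for CD8 T cell markers, 2 of 4 for natural killer cell markers, 2 of 6 for myeloid markers and 2 of 6 for red cell markers, at or below the 52.9% of all protein-coding genes with such a region. The part of such cells in the regions described below was not tested.

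Every receptor gene had at least 1 region in its window, as did 86.6% of all genes, and all 9 had more regions than the median protein-coding gene, which had 3 in the same kind of window (lower and upper quartiles 1 and 6). The same held for 49.0% of all genes. The receptor genes ranged from 4 regions at Il9r to 17 at Il2ra, with a median of 7. Il2ra led, followed by Il21r with 12, Il4ra with 10, Il6ra with 9, Il6st with 7, Il2rb and Il7r with 6 each, Il15ra with 5 and Il9r with 4. With 10 or more regions, 3 of the 9 genes stood in a class that held 6.32% of all genes. These counts are not independent, because Il2ra and Il15ra share 5 regions and Il4ra and Il21r share 6.

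The windows differ in length, so regions were also counted per 100 kb of window. The receptor genes had a median of 7.16 regions per 100 kb, against 3.56 over all genes, and all 9 were above that all-gene median, as 50.0% of genes are. The medians of the marker lists were above 3.56 too. They were 12.7 for naive CD4 T cell markers, 7.21 for natural killer cell, 4.96 for CD8 T cell, 4.29 for B cell, 4.10 for myeloid and 3.77 for red cell markers. Il2ra had 15.4 regions per 100 kb, and 0.576% of protein-coding genes were as dense or denser. For Il21r, with 13.2, this share was 1.61%, and for Il4ra, with 11.5, it was 3.16%. Il6ra followed with 8.66 (10.5% of genes as dense). Il7r, Il6st and Il2rb lay close together at 7.16, 6.81 and 6.5, where 18.0 to 22.1% of genes were as dense. Il15ra, with 5.63, and Il9r, with 5.15, were in the range that 29.5% and 33.1% of genes reached. The order depended on the flank. Of the 10 regions at Il4ra, 6 were shared with Il21r, and in the gene body alone Il4ra had 3 regions, fewer than Il6ra with 6 and Il6st with 4. With 10 kb on either side Il4ra had 6 and Il6ra 8. With 100 kb, Il2ra, Il4ra and Il7r had 22 each and Il2rb had 21, against 9 for the median gene.

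**Figure D1:**
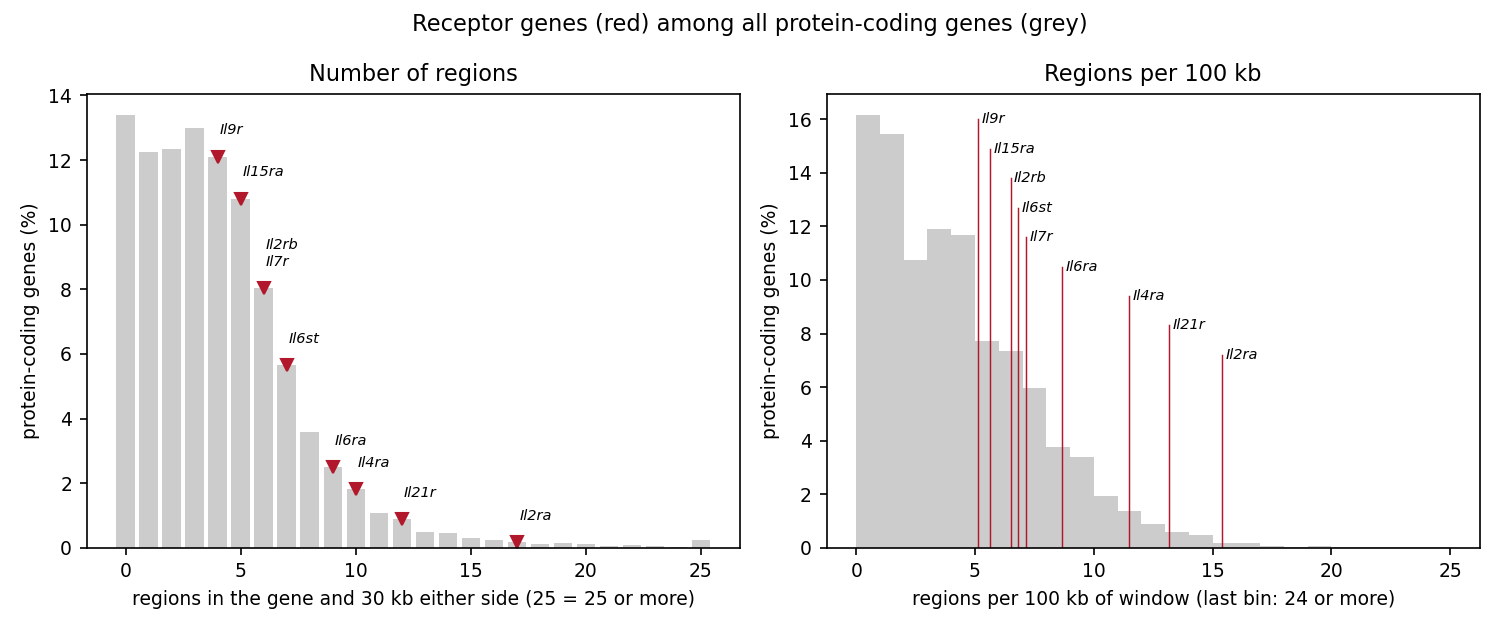
Number of accessible regions in the gene and 30 kb either side (left) and regions per 100 kb of that window (right) for all 21887 protein-coding genes (grey bars, percent of genes) with the 9 receptor genes in red. All 9 lie above the all-gene medians of 3 regions and 3.56 regions per 100 kb, and Il2ra lies furthest out, at 17 regions and 15.4 per 100 kb.

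A region lay within 1 kb of the annotated start in 7 of the 9 receptor genes, and in 52.9% of all protein-coding genes. In the same 7 genes a listed start lay inside a region, as for 44.2% of all genes. The exceptions were Il9r and Il2rb. For Il2rb no start is listed, so a region at a start inside the gene would not have been counted. When either annotated end of the gene was searched, 8 of the 9 had a region there, Il9r included, against 52.6% of all genes. Every receptor gene had at least 1 region overlapping its body, where 65.5% of all genes did. Starts were taken from RefSeq promoter entries on GRCm38.p6, the assembly that mm10 names, which matched 8 of the 9 genes; for Il2rb, which was not matched, both ends of the gene were searched.

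The starts of the receptor genes differed widely in base composition, and the promoters of 5 genes are printed to show this range. Each line gives the 250 bases before the start, 5′ to 3′ on the strand of the gene, from RefSeq on GRCm38.p6. Il2ra (chr2:11642542-11642791, plus strand) and Il7r (chr15:9529877-9530126, minus strand) are poor in CpG and have a start inside a region. Il6ra (chr3:89913197-89913446, minus strand) and Il6st (chr13:112463820-112464069, plus strand) are rich in CpG and have the widest regions at a start. Il9r (chr11:32200280-32200529, minus strand) is shown for contrast, as a listed start without a region. Capitals mark every match, on either strand, to 13 short motifs.

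Il2ra: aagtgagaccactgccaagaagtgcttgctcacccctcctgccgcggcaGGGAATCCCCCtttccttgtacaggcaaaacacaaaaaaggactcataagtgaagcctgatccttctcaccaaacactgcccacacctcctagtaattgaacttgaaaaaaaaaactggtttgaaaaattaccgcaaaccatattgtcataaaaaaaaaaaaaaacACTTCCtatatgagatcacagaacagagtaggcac
Il7r: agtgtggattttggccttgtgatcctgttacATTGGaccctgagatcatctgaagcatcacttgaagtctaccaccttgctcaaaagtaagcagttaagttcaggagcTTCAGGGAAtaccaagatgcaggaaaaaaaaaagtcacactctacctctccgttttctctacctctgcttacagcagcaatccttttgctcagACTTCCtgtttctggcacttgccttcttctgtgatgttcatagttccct
Il6ra: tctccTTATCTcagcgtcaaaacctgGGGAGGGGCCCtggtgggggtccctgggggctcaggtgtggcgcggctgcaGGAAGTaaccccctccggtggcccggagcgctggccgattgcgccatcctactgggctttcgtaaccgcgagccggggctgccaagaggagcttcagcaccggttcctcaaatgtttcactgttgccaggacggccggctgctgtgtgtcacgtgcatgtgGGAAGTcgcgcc
Il6st: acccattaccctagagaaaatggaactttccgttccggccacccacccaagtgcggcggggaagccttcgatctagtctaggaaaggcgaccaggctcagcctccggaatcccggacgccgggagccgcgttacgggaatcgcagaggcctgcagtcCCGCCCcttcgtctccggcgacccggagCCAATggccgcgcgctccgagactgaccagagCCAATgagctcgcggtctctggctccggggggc
Il9r: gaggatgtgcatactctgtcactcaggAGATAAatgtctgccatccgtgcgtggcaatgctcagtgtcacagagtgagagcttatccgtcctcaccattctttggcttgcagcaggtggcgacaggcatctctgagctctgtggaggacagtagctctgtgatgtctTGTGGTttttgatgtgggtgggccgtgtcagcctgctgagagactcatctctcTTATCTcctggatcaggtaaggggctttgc

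The promoter of Il7r held 1 CpG in these 250 bases and that of Il2ra held 3, against a median of 10 over 21263 listed starts of protein-coding genes. Il21r held 4 and Il9r 5. Il15ra has a pair of listed starts, of which the first had 2 CpG and the second 12. Il4ra, Il6ra and Il6st held 17, 18 and 26. Of the 9 listed starts of receptor genes, 5 had 10 CpG or fewer, the all-gene median, and 3 of these 5 lay inside a region: those of Il2ra, Il7r and Il21r. Over all genes, 18.1% of starts with 10 CpG or fewer lay inside a region. The other 4 starts, of Il4ra, Il6ra, Il6st and the second of Il15ra, all lay inside a region, as did 70.7% of starts with more than 10 CpG. A split at this median was chosen after the values were seen.

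Among the motifs, the ETS letters GGAAGT were found in 3 of the 8 receptor genes searched and in 20.4% of all promoters of the same length. They lay 35 to 30 bases before the start in Il2ra and 49 to 44 bases before it in Il7r, both on the opposite strand, and in Il6ra at 173 to 168 and again at 12 to 7 bases before it. The STAT letters TTCNNNGAA were found in Il7r alone, 142 to 134 bases before the start, and in 6.58% of all promoters. The NF-kB pattern, which was GGG, any 5 bases and CC, is loose and was present in 51.8% of promoters. It matched Il2ra, Il6ra, Il15ra and Il21r; in Il2ra and in Il6ra a match on each strand overlapped the other by all but 1 base. The RUNX letters TGTGGT were found in Il9r and Il21r (12.4% of all promoters) and the GATA letters AGATAA in Il9r and Il6ra (8.81%). CCAAT was found in Il6st, in 2 places, and in Il7r (35.4%), and the GC box GGGCGG in Il4ra, Il6st and Il21r (42.6%).

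The remaining motifs gave few matches. Il21r held the FOXO letters GTAAACA (2.62% of all promoters), which overlapped its RUNX match by 2 bases. The second start of Il15ra held the AP-1 letters TGANTCA (6.13%) and the TCF/LEF letters CTTTGA (12.7%). The E-box CAGCTG was found in Il4ra and before the first start of Il15ra (12.1%). The CRE letters TGACGTCA and the TATA letters TATAAA matched in 0 of the 8 genes, where 1.92% and 11.6% of all promoters had a match. A match is a description of these letters and does not show binding.

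How far the regions reached over these promoters also differed. The regions at the starts of Il2ra, Il4ra, Il21r, Il6ra and Il6st covered all 250 printed or listed bases before the start, as did the region at the second start of Il15ra. The region at the start of Il7r covered 88 of the 250, so that the ETS letters lay inside it and the STAT letters outside it. Before the start of Il9r, 0 of the 250 bases lay in a region.

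Il2ra and Il15ra, which lie in tandem on chromosome 2 and encode the private chains of the interleukin-2 and interleukin-15 receptors, were taken as 1 joint locus of 151 kb with 17 regions. Every region of Il15ra was also within 30 kb of Il2ra. Of the 17 regions, 5 lay before Il2ra, 9 overlapped Il2ra, 1 lay in the 12 kb between the genes and 2 overlapped Il15ra. No region was listed in the last 45.8 kb of the window, which contains the second part of Il15ra, the space behind it and part of Fbh1, a helicase gene.

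Il2ra (gene ID 16184, chr2:11642792-11693194, plus strand) carried regions on both sides of its start. The start lay inside a region of 706 bp (chr2:11642217-11642922). Upstream, 3 regions of 416, 284 and 532 bp were grouped between 7.27 and 5.29 kb before the start, and single regions of 710 and 628 bp lay 18.9 and 25.5 kb before it. Inside the gene, 4 regions of 446, 655, 633 and 268 bp began 8.75, 10.4, 12.2 and 14.9 kb past the start. A region of 293 bp and, behind it, one of 1356 bp (chr2:11663106-11664461) began 19.8 and 20.3 kb past the start. The 1356 bp region was the widest of the 55 receptor regions away from a protein-coding start, and 0.524% of all such regions in the list were as wide. The next 22.8 kb of the gene held no region. Towards the end of the gene, regions of 283 and 517 bp both overlapped Gm39760, a long noncoding RNA gene that runs over the end of Il2ra. The gene table used here gives no exons, so exons and introns were not told apart.

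Il15ra (gene ID 16169, chr2:11705172-11733985, plus strand), whose product presents interleukin-15 to neighbouring cells, had 2 regions of its own. One of 598 bp (chr2:11705376-11705973) began 83 bp past the first listed start and contained the second. The other, of 229 bp, lay 12.7 kb past the first start, inside the gene. The 3 remaining regions of its window lay upstream: 1 of 380 bp between the genes, 4.80 kb before the first start, and the 2 at the end of Il2ra, 13.5 and 17.8 kb before it.

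Il4ra and Il21r lie in the same order on chromosome 7, with 23.8 kb between them, and formed a joint locus of 142 kb with 16 regions. Il4ra encodes the interleukin-4 receptor alpha chain, which also serves interleukin-13, and Il21r the receptor of interleukin-21, a product of helper cells that acts on B and T cells. One region lay before Il4ra, 3 overlapped it, 4 lay between the genes, 5 overlapped Il21r and 3 lay behind it. The density over the joint window was nearly that of the Il2ra-Il15ra locus (11.3 regions per 100 kb here and 11.2 there). Regions were narrower, with a median of 342 bp against 517 bp.

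Il4ra (gene ID 16190, chr7:125552271-125579474, plus strand) had its start inside a region of 688 bp, and a second region of 161 bp lay 0.586 kb before the start. No other region lay in the 30 kb upstream. Inside the gene, regions of 333 and 513 bp began 2.12 and 8.80 kb past the start, and the rest of the gene was without a region. The 4 regions between the genes were 623, 544, 306 and 223 bp wide and lay 1.6, 9.07, 14.5 and 17.7 kb past the end of Il4ra; counted from the other side, they lay 21.7, 14.3, 9.13 and 6.07 kb before the listed start of Il21r. None of these 4 overlapped another gene of the table. Which of the neighbouring genes they serve, if any, is not given by their position.

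Il21r (gene ID 60504, chr7:125603252-125634397, plus strand) had its start inside a region of 484 bp. A wider region of 747 bp followed 3.85 kb past the start. Narrow regions of 193, 243 and 350 bp began 18.3, 19.8 and 26.8 kb past the start. Behind the gene lay a region of 970 bp (chr7:125635233-125636202), 0.836 kb past the end of Il21r, which was the widest of the joint locus, and 60 bp further a region of 222 bp. A last region of 156 bp lay 4.58 kb past the end of Il21r. It also lay beyond the end of Gtf3c1, the gene of a transcription factor subunit, which is on the minus strand and starts outside the window.

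**Figure D2:**
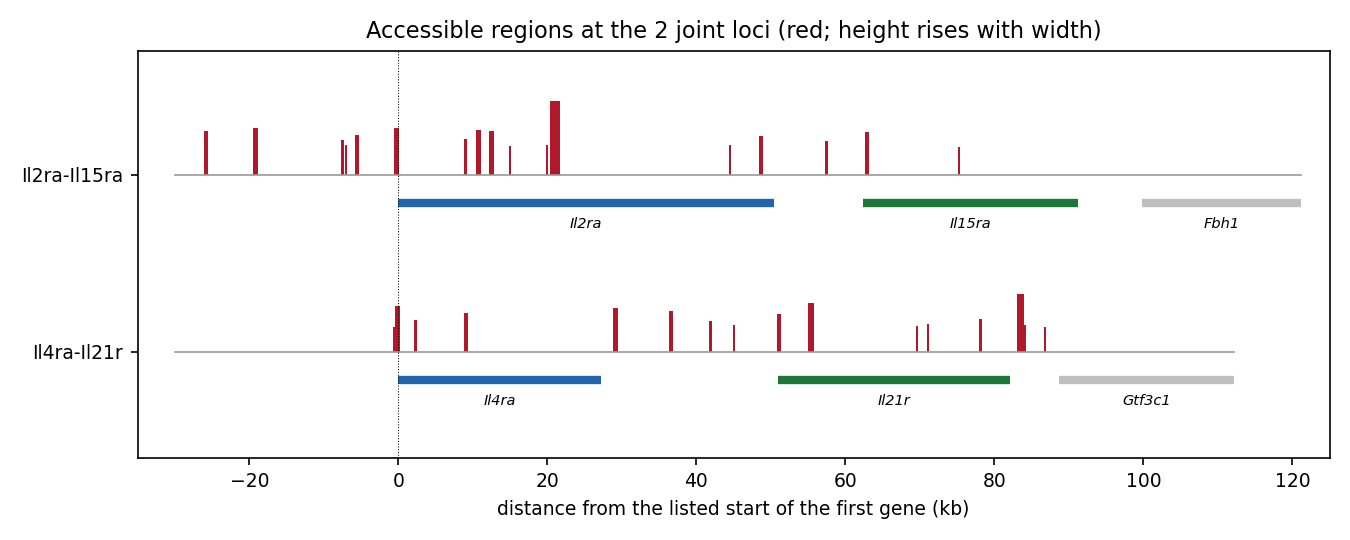
Accessible regions (red bars, with a height that rises with width) at the 2 joint loci, by distance from the listed start of the first gene in kb. Red bars are drawn to scale along the axis, except that the narrowest regions are drawn at a minimum width. Coloured bars are the receptor genes, grey bars the neighbouring protein-coding genes, and the thin line the window. In the upper locus 9 of 17 regions overlap Il2ra and 2 overlap Il15ra; in the lower locus 3 of 16 overlap Il4ra, 4 lie between the genes and 5 overlap Il21r.

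Il7r (gene ID 16197, chr15:9506159-9529941, minus strand) encodes CD127, the chain that binds interleukin-7 and is present on naive T cells. Its 6 regions all lay near or upstream of the start. The start lay inside a narrow region of 253 bp (chr15:9529712-9529964). Regions of 786 and 244 bp followed inside the gene, 1.2 and 2.40 kb past the start. Upstream, regions of 678 and 584 bp lay 3.34 and 5.30 kb before the start, and one of 508 bp lay 26.3 kb before it. From the last region inside the gene to the far end of the window, 51.1 kb held no region, which was the longest empty stretch at any of the 9 genes. No other gene of the table lay within 30 kb of Il7r. The region at the start was thus narrower than both regions nearest to it on either side, and narrower than the median of 737 bp for regions at protein-coding starts.

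Il2rb (gene ID 16185, chr15:78479256-78511621) encodes CD122, the signalling chain shared by the interleukin-2 and interleukin-15 receptors. No region lay within 1 kb of either end of the gene as annotated. Its 2 regions in the gene body, of 881 bp (chr15:78493353-78494233) and 567 bp (chr15:78494919-78495485), lay close together in the middle. The annotated span includes predicted transcripts, and a start inside the span would not be seen from its ends, so whether either region marks a start was not tested. A region of 1150 bp (chr15:78475177-78476326) lay 2.93 kb outside the lower-coordinate end and overlapped no gene; 1.22% of all regions away from a protein-coding start were as wide. The other 3 regions lay at neighbours: 1 of 391 bp inside Tmprss6, which encodes a membrane protease, and 2 of 555 and 506 bp at C1qtnf6, 16.4 and 20.3 kb past the upper-coordinate end of Il2rb.

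Il9r (gene ID 16199, chr11:32187544-32205283, minus strand), the gene of the interleukin-9 receptor, had the fewest regions, and most of them lay at other genes. Its listed start was 4.79 kb from the nearest region. That region, of 624 bp (chr11:32205071-32205694), overlapped the upper-coordinate end of the annotated Il9r span, which on the minus strand is its upstream end. The same region also contained the start of Snrnp25, a spliceosome protein gene on the opposite strand. Whether Il9r has a further start there was not tested. A region of 718 bp contained the start of Mpg, a DNA repair gene, 25.9 kb before the start of Il9r, and one of 282 bp lay 24 kb before it. The fourth, of 567 bp, lay 25 kb behind the gene in the long noncoding RNA gene Gm40823. With regions at other protein-coding genes left out, Il9r had 2 regions, both outside the gene. Counted in the gene body alone, it had 1 region, which did not exceed the all-gene median of 1.

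Il6ra (gene ID 16194, chr3:89869324-89913196, minus strand), the private chain of the interleukin-6 receptor, carried the widest region of all 9 genes at its start. This region spanned 1443 bp (chr3:89912248-89913690), and 4.13% of regions at protein-coding starts were as wide. The 29.5 kb upstream of it held no region. Inside the gene, 5 regions of 203 to 516 bp began between 20.3 and 41.7 kb past the start, the 3 middle ones of 223, 516 and 510 bp overlapping the long noncoding RNA gene Gm46811, which lies within Il6ra. Behind the gene, regions of 491 and 232 bp lay 4.93 and 7.94 kb past the end, and one of 241 bp lay in She, 25.8 kb past it. Within Il6ra, no region thus lay between the one at the start and the one that began 20.3 kb past the start.

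Il6st (gene ID 16195, chr13:112464070-112506860, plus strand), the gene of gp130, had its start inside a region of 1040 bp (chr13:112463654-112464693); 20.5% of regions at protein-coding starts were as wide. A still wider region of 1244 bp (chr13:112438020-112439263) lay 24.8 kb upstream, outside any gene, with one of 264 bp beside it. Of regions away from a protein-coding start, 0.818% were as wide as 1244 bp. Inside the gene the regions became narrower with distance, with 522 bp at 8.28 kb, 211 bp at 14.0 kb and 136 bp at 27.5 kb past the start. A region of 497 bp lay 0.664 kb past the end. Il31ra, a related receptor gene next to Il6st, had 0 regions in its body and none at its start, and the 28.8 kb between the last region and the end of the window, which reaches into Il31ra, was empty.

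**Figure D3:**
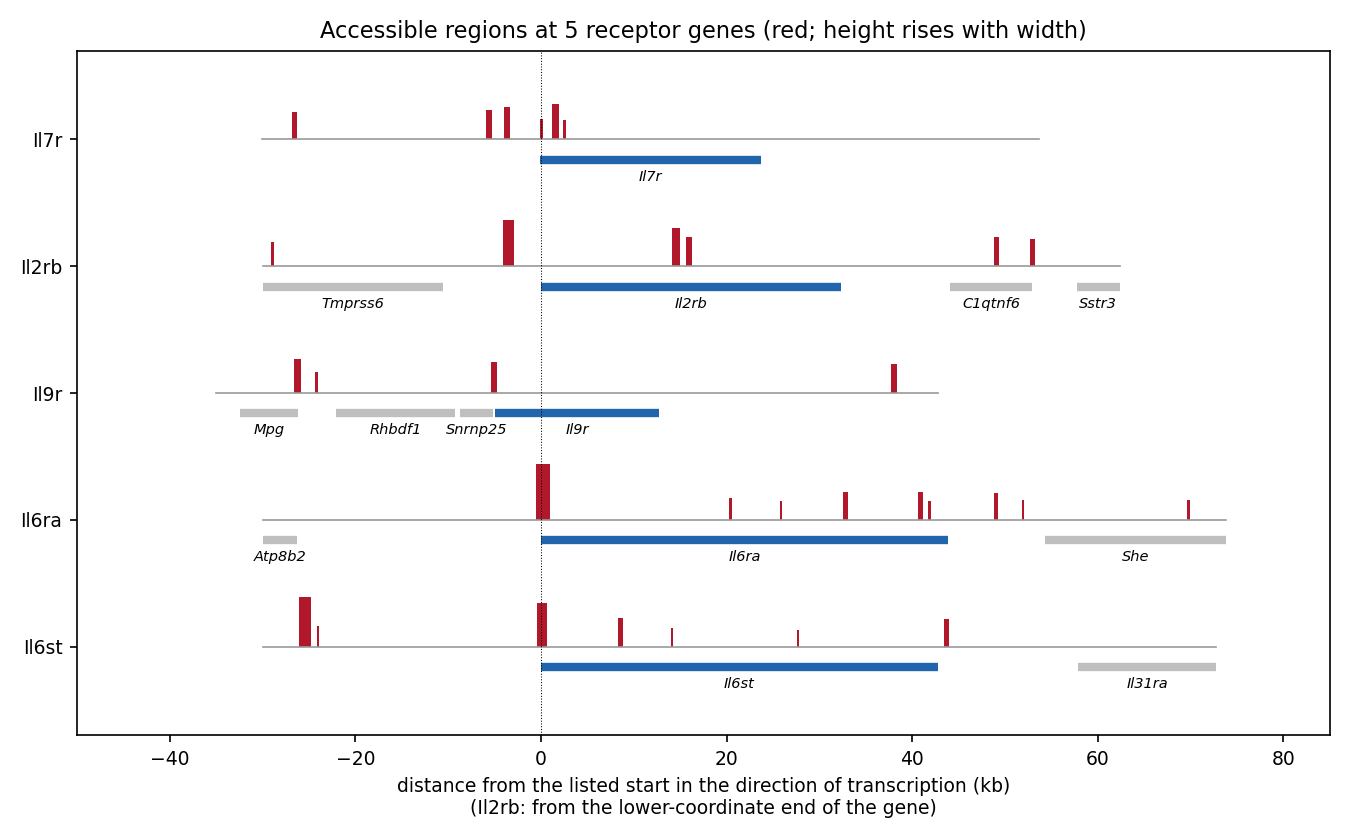
Accessible regions (red bars, height rising with width) at the 5 receptor genes outside the joint loci, by distance from the listed start in kb in the direction of transcription (Il2rb, without a listed start, from its lower-coordinate end); blue bars are the receptor genes, grey bars neighbouring protein-coding genes (Nprl3, which overlaps the end of Mpg, is not drawn), and the thin line the window. The last Il7r region begins 2.40 kb past the start, and the widest regions stand at the starts of Il6ra and Il6st, upstream of Il6st and beside Il2rb.

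The 55 receptor regions more than 1 kb from any protein-coding start had a median width of 491 bp, against 260 bp for all such regions in the list and 275 bp for those within 30 kb of a protein-coding gene. The 6 regions at Il2rb are among the 55, although a start inside that gene would not have been seen. Of the 55, 42 were wider than the 260 bp median, as are 49.9% of all such regions. At least 1000 bp was reached by 3 of the 55, the regions inside Il2ra, beside Il2rb and upstream of Il6st described above, against 2.27% of all such regions. Widths above the 260 bp median were also found in other lists, with medians of 394.5 bp at the naive CD4 T cell markers, 365 bp at natural killer cell markers, 342 bp at CD8 T cell markers, 338.5 bp at the signal transducers described below and 311 bp at the ligands. Signal inhibitors, with 267.5 bp, were also above 260 bp. Other cytokine receptors had 238 bp, and the B cell, myeloid and red cell markers ranged from 206 to 219 bp. No test was made between these lists. When each gene was left out in turn, the median stayed between 416 bp (without Il2rb) and 506 bp (without Il21r or without Il6ra). Regions shared with a neighbouring receptor gene stayed in, so leaving out Il15ra removed no region and leaving out Il2ra, Il4ra or Il21r removed only a part of theirs. The list gives no signal, so a wide region cannot be told apart from several narrow ones that were joined.

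At starts the median width was not higher. The 10 regions within 1 kb of a protein-coding start, of which 8 were at receptor genes and 1 each at Snrnp25 and Mpg, had a median width of 656 bp, below the 737 bp of all regions at starts. Of these 10, 2 were at least 1000 bp wide, those of Il6ra and Il6st, against 23.6% of all regions at starts. By position, 15.4% of the 65 regions lay at a protein-coding start, 47.7% inside a protein-coding gene away from starts and 36.9% outside both. Over all regions on assembled chromosomes these shares were 18.9%, 37.1% and 44.0%.

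**Figure D4:**
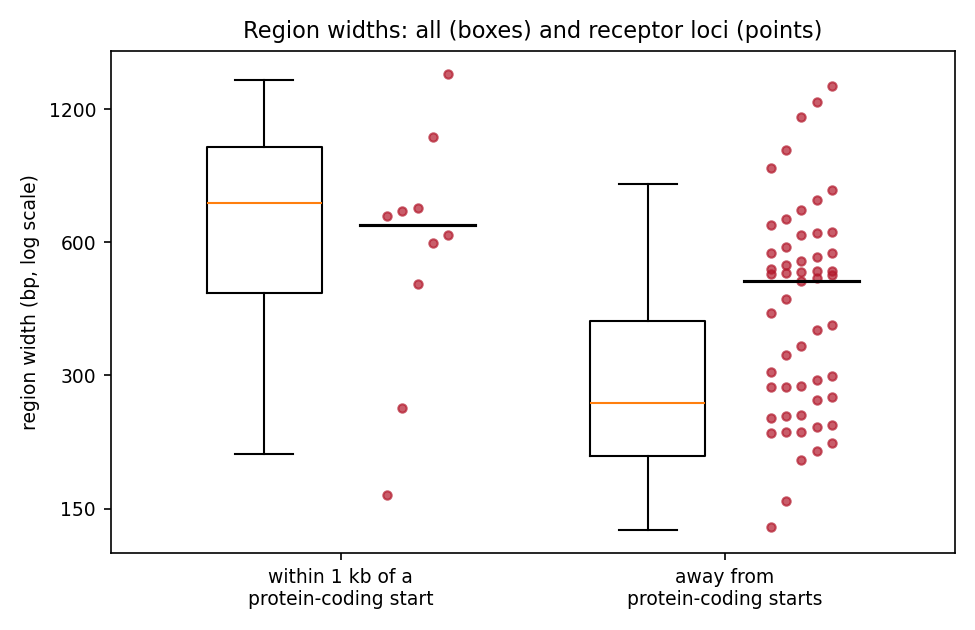
Width of regions (bp, log scale) within 1 kb of a protein-coding start and away from such starts. Boxes give the median and quartiles of all regions on assembled chromosomes, with whiskers at the 5th and 95th percentiles; red points are the 65 regions at receptor genes, spread sideways only for legibility, with their median as a black bar. Away from starts the receptor regions have a median of 491 bp against 260 bp; at starts 656 bp against 737 bp.

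The chains and ligands that complete these receptors were described from lists of pathway genes. Il2rg, the X-linked gene of the common gamma chain itself, had 3 regions in its window, 1 of them overlapping the gene, and a region at its start. Of 24 other cytokine receptor genes, 9 had a region at the start (37.5%, against 52.9% of all genes and 77.8% of the 9 receptor genes above), and their median was 4 regions. The highest counts among them were at Il12rb2 with 13, Il12rb1 with 9 and Il23r with 8, all receptor genes of the interleukin-12 and interleukin-23 system. Of these regions, 9 overlapped the body of Il12rb2, 2 that of Il12rb1 and 1 that of Il23r. Only Il12rb2 of these genes had a region at the start. Cntfr, Csf2rb and Csf2rb2 were among the 15 without a region at the start. Of the gp130 partners, chosen as examples after their values were seen, Osmr had 0 regions and Lifr had 4, with none at the start of either. Il27ra, another partner, went the other way, with 7 regions and one at its start.

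Genes downstream of the receptors had regions at nearly every start. Of 12 signal transducer genes all had one at the start, against 52.9% of all genes. Their median was 7.5 regions, against 3 over all genes. Jak1, whose kinase serves both receptor families, had 20, Stat5b had 14 and Jak2 had 11; Stat5a and Stat5b are neighbours and share regions. Of 8 inhibitor genes 7 had a region at the start, with a median of 6. Ptpn6, a phosphatase gene, had the most, 10, and was the 1 without a region at the start; Socs2 and Socs3, feedback inhibitors of STAT signalling, had 7 each.

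Among the pathway lists, the genes of the cytokines themselves had the lowest share at starts and the lowest median number of regions. Of 16 ligand genes 3 had a region at the start (18.8%), and their median of 3 regions equalled that of all genes. Osm, the gene of oncostatin M, had 9, Lif had 8 and Clcf1 had 7. Among the 13 without a region at the start were Cntf, Il11 and Il13. In order of the median among these lists, the naive CD4 T cell markers came first with 11 regions (led by Lef1 with 19, Tcf7 with 14 and Ccr7 with 13), then the signal transducers, the receptor genes described here with 7, the inhibitors, the other receptors and the ligands. These are descriptions of lists of unequal gene length and size, and no test was made between them.

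**Figure D5:**
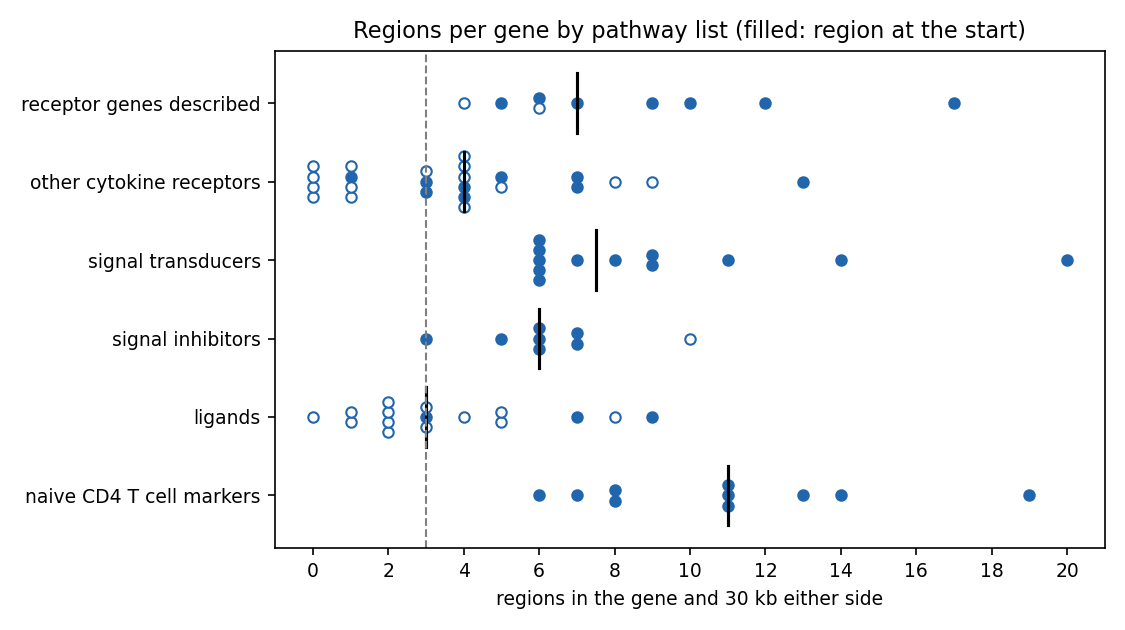
Number of accessible regions in the gene and 30 kb either side for each gene (points) of the receptor genes described, 4 pathway lists and the naive CD4 T cell markers. Filled points have a region within 1 kb of the start, black bars are list medians, and the dashed line is the all-gene median of 3; the receptor genes have a median of 7 and the ligands of 3.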

How the data were processed

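The values analysed are positions: the deposited list gives, per the labels, the joint regions of 4 ATAC-seq libraries (2 WT, 2 DDX55 KO) in 3 columns without a header, and no count or score. Per the submitters' processing notes, the build was mm10 and the tools were MACS3 3.0.0b1, SAMtools 1.15.1, Bowtie2 2.5.08 and fastp 0.12.4. For the joining of peaks, the thresholds, duplicates and the transposase offset, the settings were not given in the sources used here. Starts were converted to 1-based positions. Gene spans and promoter entries came from RefSeq tables of GRCm38.p6; 17492 of 21887 protein-coding genes had an entry on their chromosome, and for the other 4395 both gene ends stood for the start. The 292 regions on scaffolds (0.453%) entered no comparison. Overlap counts were made in Python 3.11.15 with numpy 2.4.6 and pandas 2.3.3. On simulated regions the counting was checked for 200 genes and returned the planted number for 200. No test between groups was possible with positions alone, so counts stand beside the same count over all genes. The genes and lists were chosen with earlier results of these data known. Named genes followed a rule (all 9 receptor genes; of each list the 3 with the most regions and up to 3 without a region at the start; neighbours that overlap a counted region). Outside this rule, some genes were named after their values were seen. These were Fbh1, Gtf3c1 and Il31ra, which lie in a window but overlap no region counted there, and Il2rg, Il27ra, Lifr, Osmr and Stat5a. Some naive CD4 T cell markers were also named in this way. The other marker lists are given by counts and medians.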

Additional observations from a re-analysis of the deposited data

How the results depend on the processing

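No paired analysis was possible because the list has no values per library; leaving out replicates and a comparison of genotypes could not be run for the same reason. The number of receptor regions (65) became 35 without a flank, 139 with 100 kb and 43 with regions of at least 300 bp; the median per gene (7) became 3, 20 and 4, while the all-gene median (3) became 1, 9 and 2. These alternatives change the window or drop regions by construction. Under the other alternatives (10 kb, middle of the region, at least 200 bp, merging within 500 bp, other genes' regions left out) both values stayed within 1.5 times. All 9 genes stayed above the all-gene median except Il9r without a flank and with 10 kb. Between 6 and 8 genes had a region at the start: Il7r dropped out at 300 bp, and Il9r counted when either gene end was used. Of 72 counts per gene under these alternatives, 27 moved by over 1.5 times.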
